A study of Brassica rapa subsp. pekinensis with 10 samples.

Results

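The late cold fallers are array features of Chinese cabbage (Brassica rapa subsp. pekinensis). Their signal was near or above normal after 15 min of cold and low after 120 min. They numbered 36 of the 47548 cabbage features measured, or 0.0757%. They were chosen by their measured log2 intensities in 6 of the 10 arrays. Both 15 min arrays had to lie at most 0.3 log2 units below the lower normal array, and both 120 min arrays at least 0.7 log2 units (1.62-fold) below it. Within each variety the 120 min array also had to lie at least 0.7 log2 units below the 15 min array. Inside the 0.3 allowance, 4 members were below the lower normal array at 15 min in Shin-Hong and 15 in Man-Su. Levels at 15 and 120 min are therefore descriptions of the choice, and the 30 and 60 min arrays are the ones it did not read.

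The arrays were one-colour Cy3 oligonucleotide arrays of total RNA from the varieties Shin-Hong and Man-Su. The groups were Shin-Hong and Man-Su plants labelled as under cold stress for 15, 30, 60 or 120 min, and plants of both varieties labelled normal, with 1 array per group. No group had a replicate, so every difference between 2 arrays is a difference of those arrays. The labels used here name no tissue, plant age or cold temperature and do not say whether plants were pooled.

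In Brassica and its relatives, chilling is sensed within minutes and transcription factors of the CBF/DREB family are induced early, followed by their COR target genes. Transcripts can also decline in the cold, through lower synthesis or through faster decay, and an array level does not separate these. The deposited features carry IDs without gene names, 0 of the IDs matched the gene table used here, and no sequence of a member was given. The members are therefore described by their values, and no function is assigned to any of them.

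Some arrays stood apart from their labels or their neighbours. The 50 features that best separated the cold arrays by variety differed by at least 3.67 log2 units between them. Of these, 0 kept the labelled direction in the normal arrays, and 0 of the 50 were members. Across features, the Pearson r of the array labelled Shin-Hong normal was 0.899 to 0.907 with Shin-Hong cold and 0.933 to 0.957 with Man-Su cold. For the one labelled Man-Su normal it was 0.938 to 0.962 with Shin-Hong cold and 0.928 to 0.931 with Man-Su cold. The choice of members read the lower normal array whatever its variety, so it does not depend on their labels. Whether normal or cold arrays carry the other variety's label cannot be told apart here, and a direction between varieties holds for the arrays as labelled. Shin-Hong cold 120 min had the lowest mean correlation with the other cold arrays of its variety, 0.963 against 0.977 to 0.981 for the other Shin-Hong arrays. Its mean r with the Man-Su cold arrays was 0.948, against 0.928 to 0.932 for the others. Man-Su cold 30 min had 0.974 against 0.978 to 0.984 for the other Man-Su cold arrays, and its random-sequence control lay at 5.63 log2 units against 5.23 to 5.26 in them. Its mean r with the Shin-Hong cold arrays was 0.950, against 0.928 to 0.931 for the others. Both arrays were thus closer to the other variety than their neighbours were, and the part of this in the comparisons between varieties was not tested.

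The members were mostly bright features. The lower normal array had a median of 12.24 log2 units over the members, between 3.77 and 14.03, and of 11.81 over all features. In every array 34 members lay at least 2.26 log2 units above the random-sequence control. The other 2 lay below it in all 10 arrays, so no transcript level can be read for them. Of the members 35 had 7 probes, or 97.2%, against 98.4% of all features. The lower normal array was the one labelled Shin-Hong for 25 members, where it was for 49.0% of all features, and the one labelled Man-Su for 11.

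Most of the fall came late. Over the 36 members, the Shin-Hong arrays had medians of 0.31, 0.33, 0.15 and -1.04 log2 units relative to the lower normal array at 15, 30, 60 and 120 min. The Man-Su arrays had medians of 0.06, -0.02, -0.28 and -1.09 at the same times. Over all features these medians stayed between 0.16 and 0.18 in Shin-Hong and between 0.20 and 0.27 in Man-Su. Up to 60 min the members' medians thus lay within 0.4 log2 units of the lower normal array in either variety. That reference is the lower of 2 arrays. The members' own medians against it were 0 in the array labelled Shin-Hong normal and 0.20 in the one labelled Man-Su normal. As a comparison of medians, the Man-Su value of -0.28 at 60 min lay further below that 0.20, and below the 0.26 of all features, than below the reference. The variety labels of the normal arrays are in doubt, so the 0.20 is not read as Man-Su's own normal level. The value at 120 min corresponds to a median of 2.06-fold below the lower normal array in Shin-Hong and 2.14-fold in Man-Su, sizes that the choice of members demanded in part.

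**Figure D1:**
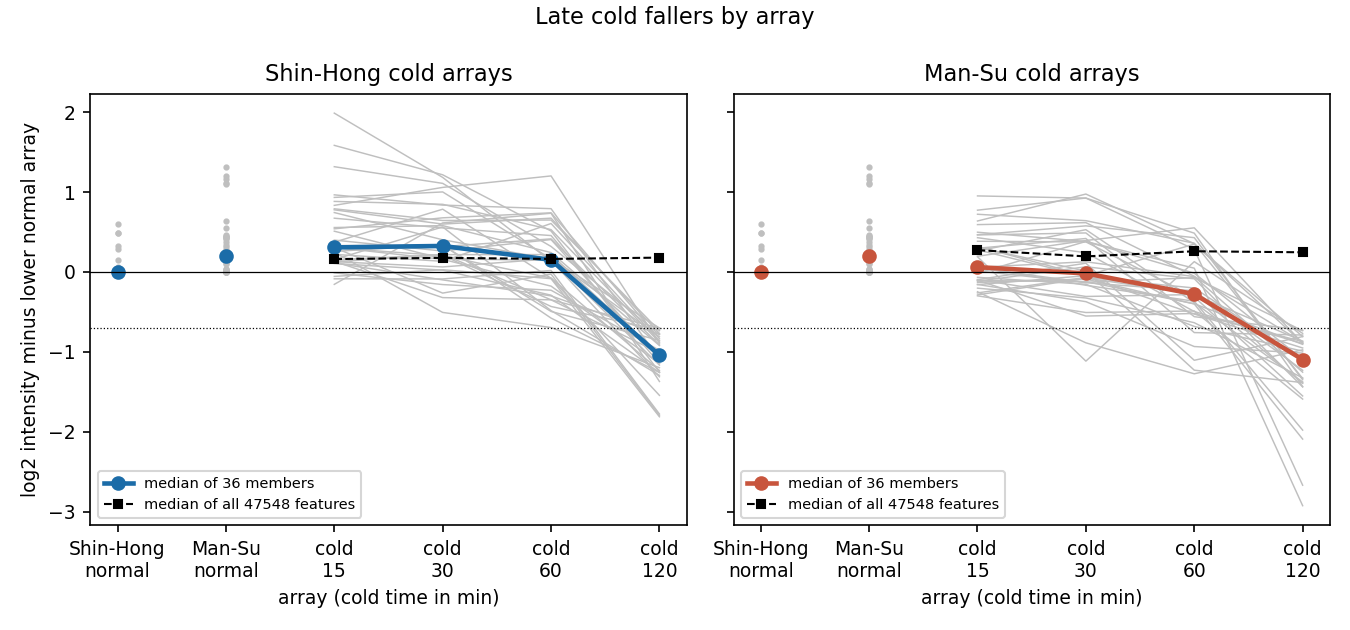
Log2 intensity of the 36 members minus the lower normal array, with the normal arrays at the left and cold time in min to the right, for the Shin-Hong cold arrays (left panel) and the Man-Su cold arrays (right panel). Grey lines and dots are members, coloured circles their median and black squares the median of all 47548 features; the dotted line lies 0.7 log2 units below the lower normal array. The member medians lie between -0.02 and 0.33 up to 30 min, stand at 0.15 in Shin-Hong and -0.28 in Man-Su at 60 min, and reach -1.04 and -1.09 at 120 min.

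Counts past the 0.7 margin before 120 min are given beside those of all features. At 30 min 0 members were at least 0.7 log2 units below the lower normal array in Shin-Hong and 2 in Man-Su, 1 of them below the random-sequence control, where 4.27% and 7.40% of all features were. At 60 min the counts were 0 in Shin-Hong and 5 in Man-Su, where 4.12% and 3.97% of all features were. In both varieties at once 0 members were that low at 30 min and 0 at 60 min, against 1.67% and 0.509% of all features. With so few features past the margin in both varieties, under 1 member would be met at the share of all features, and these zeros are not read as a result about the members. The 60 min count was 1 to 3 with quantile normalization, the mean of the normal arrays or a margin of 0.5. At 120 min all 36 were, as the rule required, against 1.71% of all features. At 60 min 7 members in Shin-Hong and 17 in Man-Su were more than 0.3 log2 units below the lower normal array, against 17.3% and 14.0% of all features. These Shin-Hong counts were thus near or under the share of all features, and the Man-Su counts were above it at 60 min.

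Measured as a share of each member's fall from 15 to 120 min, the median reached by 30 min was 6.32% in Shin-Hong and 1.35% in Man-Su. By 60 min it was 21.8% in Shin-Hong and 20.5% in Man-Su. At least 50% of the fall had been reached by 60 min in 6 members in Shin-Hong and in 10 in Man-Su. The largest of the 3 steps between cold times was the last one, from 60 to 120 min, for 30 members in Shin-Hong and 25 in Man-Su, and for 21 in both. The last step had a median of -1.29 log2 units in Shin-Hong and -0.95 in Man-Su. It includes the 120 min arrays on which the members were selected, so its size is a description. A decline at every step was seen in 15 members in Shin-Hong, 13 in Man-Su and 9 in both. All counts of this paragraph read the 15 and 120 min arrays, between which the rule demanded a fall of at least 0.7 log2 units in each variety. The same counts over all features were not made, so these are descriptions of the chosen members only.

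The step from 30 to 60 min used only arrays outside the rule. From 30 to 60 min the median change over the members was -0.15 log2 units in Shin-Hong and -0.31 in Man-Su, against -0.02 and 0.00072 over all features. The array was lower at 60 than at 30 min in 24 members in Shin-Hong, in 29 in Man-Su and in 19 in both, where 25.9% of all features were lower in both. Averaged over the varieties, 32 of 36 members were lower at 60 min, against 48.7% of all features. In a limma fit to the 4 arrays of these times, with variety as a term, 0 members and 0% of all features were called lower at a Benjamini-Hochberg adjusted p under 0.05. A fit to so few arrays has little power after adjustment, so the absence of calls does not show that levels were equal. At an unadjusted p under 0.05 the limma fit had 5 members lower and 0 higher, where 1.68% of all features were lower and 1.66% higher. The fit had 1 residual degree of freedom, which is the difference between the varieties in this change and not a spread between replicates. With no variety term 1 member was lower at that unadjusted p, against 0.183% of all features, and with quantile normalization 7 were, against 2.45%.

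**Figure D2:**
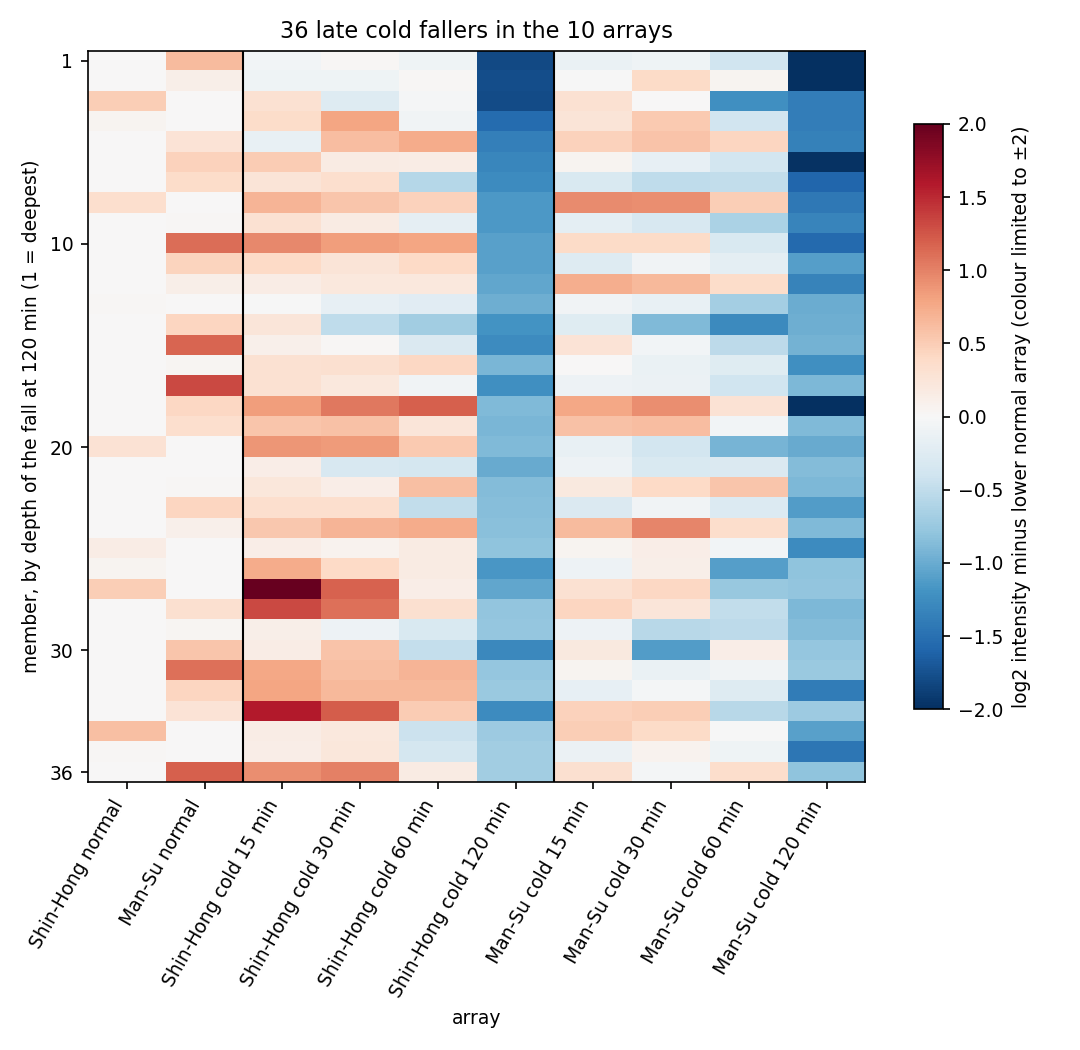
Log2 intensity minus the lower normal array for each of the 36 members (rows, deepest fall at 120 min at the top) in the 10 arrays (columns), with colour limited to 2 log2 units on either side. Blue fills the 120 min columns of both varieties, which the choice of members required, and at 60 min 5 members are at least 0.7 below in Man-Su and 0 in Shin-Hong.

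The members with the deepest fall, taking the smaller of the falls in the varieties, were Brapa_ESTC025829 and Brapa_ESTC024904. Brapa_ESTC025829 had 12.78 and 13.41 log2 units in the Shin-Hong and Man-Su normal arrays. Its Shin-Hong cold arrays had 12.72, 12.81, 12.70 and 10.97 log2 units at 15, 30, 60 and 120 min, and its Man-Su cold arrays had 12.65, 12.69, 12.38 and 10.69. Both 120 min arrays stood far below the other 8, which lay within about 1 log2 unit of one another. Between 30 and 60 min Brapa_ESTC025829 differed by -0.21 ± 0.19 log2 units (SE, 60 minus 30 min, limma adjusted p = 0.989).

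Brapa_ESTC024904 had 13.41 and 13.53 log2 units in the Shin-Hong and Man-Su normal arrays. Its Shin-Hong cold arrays had 13.33, 13.33, 13.43 and 11.64 log2 units at 15, 30, 60 and 120 min, and its Man-Su cold arrays had 13.40, 13.79, 13.46 and 10.49. Again only the 120 min arrays were low, at -1.78 log2 units from the lower normal array in Shin-Hong and -2.92 in Man-Su, the lowest value of any member in either variety. Between 30 and 60 min Brapa_ESTC024904 differed by -0.11 ± 0.21 log2 units (SE, 60 minus 30 min, limma adjusted p = 0.992).

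The member in the middle of the order by depth first stood above normal. It had 11.73 and 12.14 log2 units in the Shin-Hong and Man-Su normal arrays. In Shin-Hong it stood at 12.56, 12.79, 12.93 and 10.84 log2 units at 15, 30, 60 and 120 min. In Man-Su it stood at 12.50, 12.65, 12.01 and 9.06. Its cold arrays were below both normal arrays at 120 min only, and the Man-Su array was the lower.

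The earliest declines were read from the 30 min arrays. The member lowest there, ranked by the higher of its values in the varieties, had 10.23 and 10.66 log2 units in the Shin-Hong and Man-Su normal arrays. Its Shin-Hong cold arrays had 10.48, 9.73, 9.54 and 9.03 log2 units at 15, 30, 60 and 120 min, and its Man-Su cold arrays had 9.98, 9.35, 8.96 and 9.26. This member was below both normal arrays from 30 min on in Shin-Hong and already at 15 min, by a smaller margin, in Man-Su. The next earliest had 13.06 log2 units in both normal arrays, 13.19, 12.74, 12.71 and 12.04 in the Shin-Hong cold arrays, and 12.96, 12.75, 12.77 and 12.19 in the Man-Su cold arrays. It stood between -0.35 and -0.28 log2 units from the lower normal array at 30 and 60 min in both varieties and lower still at 120 min.

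The latest declines belonged to members still above normal at 60 min. One of them had 13.47 and 13.50 log2 units in the Shin-Hong and Man-Su normal arrays. Its Shin-Hong cold arrays had 13.69, 13.60, 14.07 and 12.60 log2 units at 15, 30, 60 and 120 min, and its Man-Su cold arrays had 13.66, 13.86, 14.02 and 12.58. In both varieties its highest cold value was the one at 60 min and its lowest the one at 120 min. Another had 12.59 and 12.26 log2 units in the normal arrays, 12.94, 12.82, 12.72 and 11.12 in the Shin-Hong cold arrays, and 13.22, 13.19, 12.75 and 10.83 in the Man-Su cold arrays. It was above both normal arrays up to 60 min and below both at 120 min.

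Being near normal at 15 min described most but not all members. At 15 min 25 of 36 lay within 0.3 log2 units of the range of the normal arrays in both varieties, and the other 11 were more than 0.3 above the higher normal array in at least 1 variety. There were 10 such members in Shin-Hong, 4 in Man-Su and 3 in both. The 2 highest above normal at 15 min in Shin-Hong, picked after their values were seen, were lower at each later time in that variety. One had 10.91 and 10.42 log2 units in the Shin-Hong and Man-Su normal arrays and 12.41, 11.61, 10.56 and 9.38 in the Shin-Hong cold arrays. In the Man-Su cold arrays it had 10.72, 10.84, 9.66 and 9.63. Its Shin-Hong series thus passed through the normal level between 30 and 120 min, while its Man-Su series was already low at 60 min. The other had 9.44 and 9.72 log2 units in the Shin-Hong and Man-Su normal arrays, 11.03, 10.66, 9.96 and 8.19 in the Shin-Hong cold arrays, and 9.91, 9.93, 8.88 and 8.72 in the Man-Su cold arrays. Here too Man-Su was below normal at 60 min and Shin-Hong was not.

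Most members first passed the margin at 120 min in both varieties. The rule put every member past it at that time, so this follows for any member not past it at 30 or 60 min. Of all features, 4.27% and 7.40% were past it at 30 min in Shin-Hong and Man-Su, and 4.12% and 3.97% at 60 min. The first times below are thus a description and are not read as agreement between the varieties. The first cold time at which a member was at least 0.7 log2 units below the lower normal array was 120 min in both varieties for 30 members. For 4 members it was 120 min in Shin-Hong and 60 min in Man-Su, and for 2 it was 120 min in Shin-Hong and 30 min in Man-Su. Of these 2, 1 lay below the random-sequence control, so its time cannot be read, and Man-Su cold 30 min is an array that stood apart. The first time was earlier in Shin-Hong than in Man-Su for 0 members. The levels of the varieties lay within 0.5 log2 units of each other in 21, 27, 21 and 29 members at 15, 30, 60 and 120 min, against 60.3%, 70.3%, 57.5% and 70.8% of all features. The median Shin-Hong minus Man-Su difference was 0.23, 0.31, 0.32 and 0.10 log2 units at these times. Shin-Hong was thus the higher already at 15 min, by nearly as much as at 60 min, and the members were about as close between the varieties as other features up to 60 min. The closeness at 120 min is partly fixed by the rule, which demanded the same minimum fall in both.

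**Figure D3:**
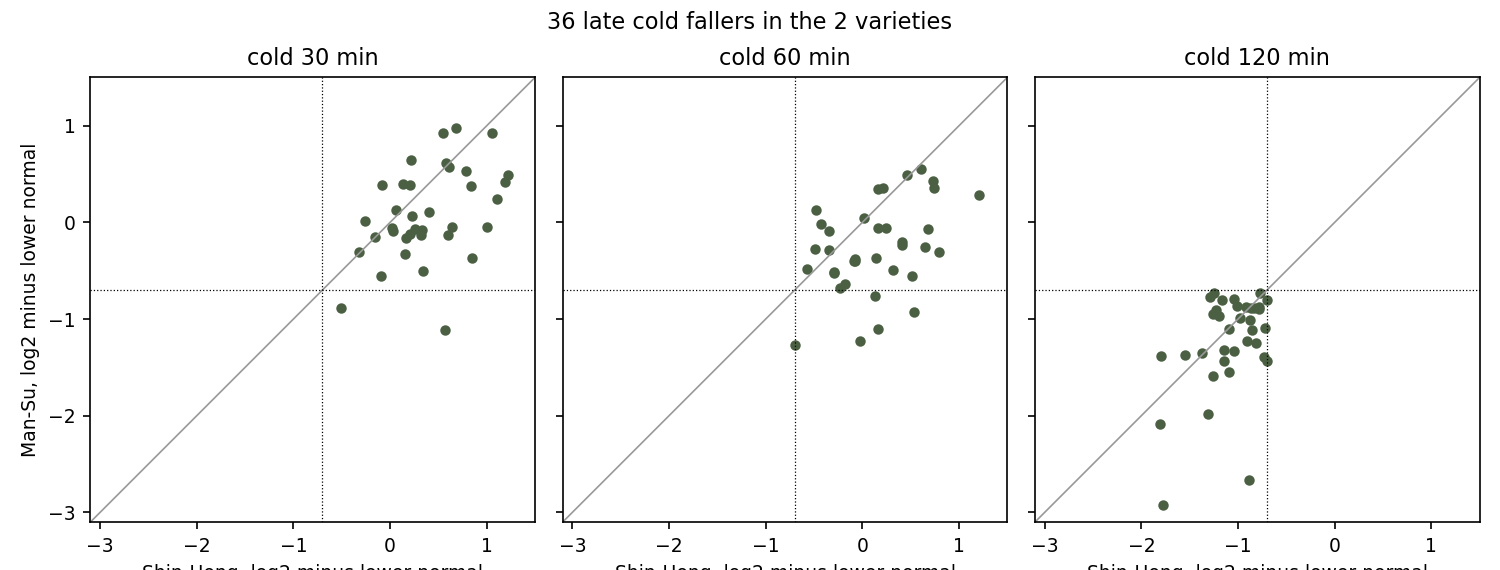
Log2 intensity minus the lower normal array of the 36 members in Shin-Hong (horizontal) and Man-Su (vertical) at 30, 60 and 120 min of cold, with the line of equal values and dotted lines at the 0.7 margin. At 60 min 5 members are past the margin in Man-Su and 0 in Shin-Hong, and at 120 min all 36 are past it in both, as chosen.

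The 5 members past the margin in Man-Su at 60 min are described as picked for that value, with no test of them as a group. Their Man-Su arrays lay between -1.27 and -0.76 log2 units from the lower normal array at 60 min and then differed by -0.16 to 0.30 from 60 to 120 min. Their Shin-Hong arrays lay between -0.69 and 0.53 at 60 min and were lower by 120 min in all 5, by -1.77 to -0.50. The other 31 members had a median step of -1.26 log2 units from 60 to 120 min in Shin-Hong and -1.08 in Man-Su.

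The member with the widest difference at 60 min had 12.49 and 12.21 log2 units in the Shin-Hong and Man-Su normal arrays. It stood at 13.09, 13.05, 12.74 and 11.33 log2 units in the Shin-Hong cold arrays and at 12.05, 11.83, 11.27 and 11.19 in the Man-Su cold arrays. The Man-Su arrays were below both normal arrays from 15 min on, the Shin-Hong arrays at 120 min only. Over 30 and 60 min it was 1.34 ± 0.19 log2 units higher in Shin-Hong than in Man-Su (SE, limma adjusted p = 0.0415). This call was lost when either 60 min array was left out of a fit to the other cold arrays, where 0 members were called. The next widest had 11.87 and 11.81 log2 units in the normal arrays, 12.56, 12.22, 11.97 and 10.65 in the Shin-Hong cold arrays, and 11.72, 11.92, 10.71 and 11.00 in the Man-Su cold arrays. Its limma difference of 0.78 ± 0.29 log2 units (SE, Shin-Hong minus Man-Su) did not pass (adjusted p = 0.169). Both members were picked for their difference at 60 min, which this test also reads, so neither p-value is independent of the choice.

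Differences the other way were smaller among bright members. The bright member with the largest had 14.34 and 13.75 log2 units in the Shin-Hong and Man-Su normal arrays. Its Shin-Hong cold arrays had 13.90, 13.96, 13.31 and 13.02 log2 units, and its Man-Su cold arrays had 14.24, 14.13, 13.73 and 12.66. At 60 min Shin-Hong stood at -0.42 log2 units from Man-Su and at 120 min at 0.37, so the order turned. A member below the random-sequence control had a wider difference at 60 min, -0.61 log2 units, which is not read as a level.

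The members' signal was more often higher in Shin-Hong at every cold time. Shin-Hong exceeded Man-Su in 26, 25, 26 and 23 members at 15, 30, 60 and 120 min, against 46.0%, 50.8%, 46.4% and 46.7% of all features. The rule read the 15 and 120 min arrays, so the counts at those times describe the choice of members. The limma test of the varieties in the 4 arrays of 30 and 60 min, with time as a term, called 1 member higher and 0 lower in Shin-Hong, against 2.14% and 1.56% of all features. At an unadjusted limma p under 0.05, 9 members were higher, against 14.0% of all features. With all 8 cold arrays in the fit 6 members were called higher and 0 lower, against 10.8% and 11.5% of all features, and that fit includes arrays the rule read. Nothing in the labels says whether arrays came from separate plants. With 1 array per group, the residual of the 4-array fit is how far the 60 minus 30 min change differed between the varieties. It is not a spread between replicates, so these p-values do not measure variation between plants or between repeated arrays.

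Over the 36 members the 60 minus 30 min changes of Shin-Hong and Man-Su had a Pearson r of -0.04 and a Spearman rho of 0.13. The 120 minus 60 min changes had an r of 0.42 and a rho of 0.39, but they include the 120 min arrays, which the rule limited in both varieties. These values describe the members, which share the arrays and their scaling.

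Agreement between the varieties was also read without using both to choose. When the conditions were applied to the Man-Su arrays and the normal arrays alone, 180 features met them. In Shin-Hong, whose cold arrays took no part in this choice, 95 of the 180 (52.8%) were at least 0.7 log2 units lower at 120 than at 15 min, against 8.77% of all features. Their median Shin-Hong change from 15 min was -0.05 log2 units at 30 min, -0.10 at 60 min and -0.77 at 120 min, where that of all features was 0.013, 0.0018 and -0.0059. Of the 180, 4 (2.22%) were at least 0.7 lower in Shin-Hong at 30 min and 16 (8.89%) at 60 min, against 0.181% and 2.08% of all features. The share past the margin was thus above that of all features at each time, and the other 85 of the 180 did not reach it at 120 min. The 120 min values come from Shin-Hong cold 120 min, which stood apart from its variety and closer to the Man-Su cold arrays. The part of that array in the 52.8% was not tested.

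The converse choice gave less agreement. When the conditions were applied to Shin-Hong and the normal arrays alone, 975 features met them, and 77 of these (7.90%) were at least 0.7 log2 units lower at 120 than at 15 min in Man-Su, against 2.54% of all features. Their median Man-Su change from 15 min was -0.38 log2 units at 30 min, -0.12 at 60 min and -0.16 at 120 min. That of all features was 0.018, -0.011 and -0.015. The 0.7 margin was passed by 34.5% of the 975 at 30 min and 2.05% at 60 min, against 11.8% and 0.498% of all features. The 36 members were 20% of the features chosen in Man-Su and 3.69% of those chosen in Shin-Hong. The longer Shin-Hong list went with the Shin-Hong 120 min array that stood apart from its variety, and the 30 min value with the Man-Su 30 min array that did. The part of these arrays in the result was not tested.

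**Figure D4:**
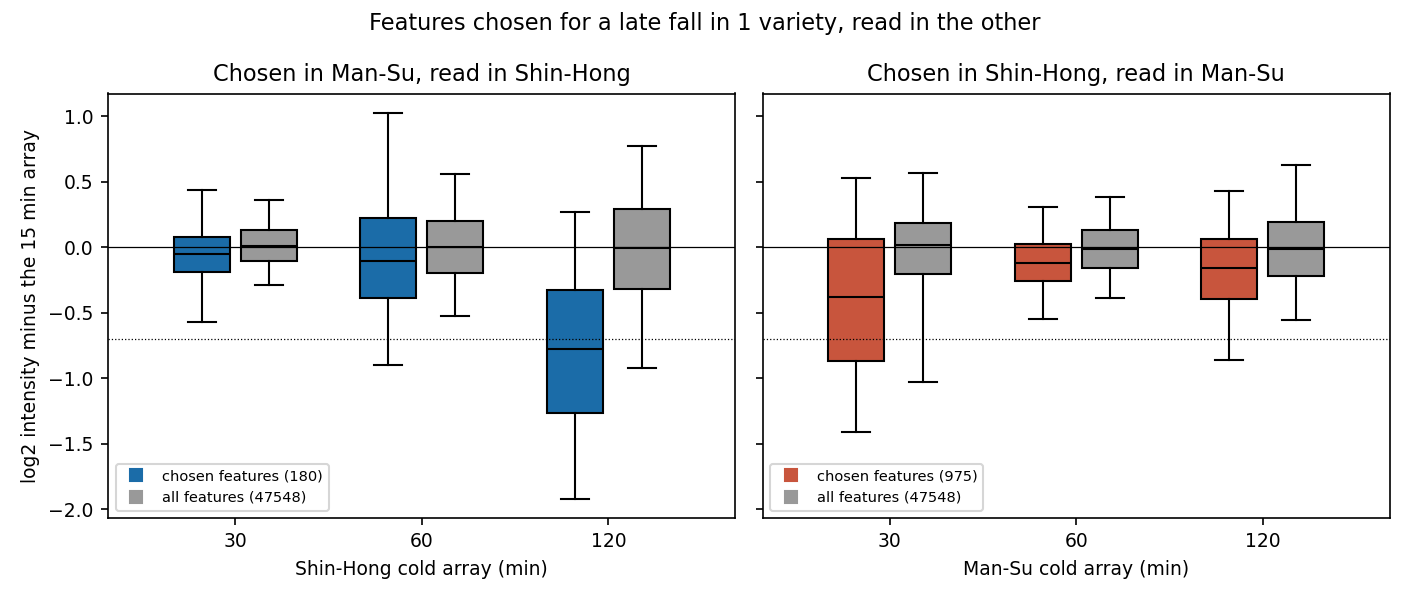
Log2 intensity minus the 15 min array of the same variety at 30, 60 and 120 min of cold, for features chosen in Man-Su and read in Shin-Hong (left, 180 features) and for features chosen in Shin-Hong and read in Man-Su (right, 975 features), beside all 47548 features in grey. Boxes show the median and quartiles, whiskers the central 90% of features, and the dotted line the 0.7 margin. The left median is -0.77 at 120 min, the right one -0.16.

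The same rule with all signs turned gave 148 late risers, read here as a counterpart. At 60 min 26 of the 148 risers were at least 0.7 log2 units above the higher normal array in both varieties, and at 30 min 6 were, where 2.03% and 3.47% of all features were. The median share of the rise from 15 to 120 min that was reached by 60 min was 49.8% in Shin-Hong and 48.7% in Man-Su, beside the fallers' 21.8% and 20.5%. The difference between the lists was not tested.

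The margins left some features close to the edge. Apart from a member below the random-sequence control, the member nearest the margins met them by 0.0016 log2 units, with its Man-Su 15 min array at -0.298 from the lower normal array. The nearest feature outside stood at -0.0013 log2 units from a margin, with Man-Su arrays of 13.36 log2 units at 15 min and 12.66 at 120 min.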

How the data were processed

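RNA was hybridised to 10 arrays, 1 per variety and treatment. The deposited intensity values are linear, and the authors' method was robust multi-array averaging (RMA), per the submitters' processing notes, which name no version. The number of probes per feature, another kind of value, was used as deposited, per the file headers. Intensities were taken to log2 with no filter and no further normalization, because the membership rule is written on these values. The members, the comparisons and the alternatives were chosen with earlier results of these data known. Differences of 60 and 30 min and of the varieties were fitted in limma 3.58.1 (R 4.3.3, lmFit and eBayes) to the 4 arrays of 30 and 60 min over all 47548 features, with Benjamini-Hochberg adjustment over all of them and a threshold of 0.05. Tested on simulated data, the fit returned the sizes put in but made no calls after adjustment. An absence of calls is thus not read as an absence of change. On the measured arrays the same fit called 1759 features between the varieties, so the simulation does not describe that comparison. The 6 control features were left out. The 2 IDs printed are the members with the deepest fall at 120 min by the smaller of the falls in the varieties; other members were picked by their rank in depth, at 30 or 60 min or by nearness to a margin, and 2 after their values were seen. Array data carry no read depth, and the number of arrays limits the precision.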

Additional observations from a re-analysis of the deposited data

Results flagged for a closer look

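Brapa_ESTC024904 had opposite signs in the varieties from 30 to 60 min, at 0.11 log2 units in Shin-Hong and -0.33 in Man-Su, a difference that was not tested. Of the 36 members 15 had such opposite signs over this step, also untested, since each variety had 1 array per time. The share of all features with opposite signs was not computed, so this count is not read as a result about the members.

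The barcode controls, which no comparison used, were 0.54 log2 units higher in the mean of the 8 cold arrays than in that of the 2 normal arrays. Not all cold arrays shared this. The controls lay at 8.65 to 8.98 log2 units in the Shin-Hong cold arrays and 8.90 in Man-Su cold 30 min. In the other Man-Su cold arrays they lay at 7.82 to 8.27, beside 8.13 and 7.88 in the Shin-Hong and Man-Su normal arrays. In the 120 min arrays they lay at 8.98 log2 units in Shin-Hong, the highest of the 10 arrays, and at 7.82 in Man-Su, the lowest.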

How the results depend on the processing

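Quantile normalization gave 34 members, of which 29 were among the 36, and leaving out dim features gave 34. Margins of 0.2 and 0.8 log2 units gave 18 members and margins of 0.4 and 0.6 gave 57. Without 1 of the 6 arrays that the rule reads there were 44 (Man-Su normal) to 645 (Man-Su cold 120 min): 65 without Shin-Hong normal, 64 and 146 without Shin-Hong cold 15 and 120 min, and 250 without Man-Su cold 15 min. Fewer conditions then applied. Members past 0.7 in both varieties at 30 min numbered 1 against the mean of the normal arrays, 1 at a margin of 0.5, and 0 to 2 in a single variety. At 60 min they numbered 1 with quantile normalization, 3 against the mean of the normal arrays, 1 at a margin of 0.5, and 0 to 5 in a single variety. The limma comparison of 60 with 30 min called 0 features in each alternative run. That of the varieties called 1759 features, 3673 with quantile normalization, 10612 with all 8 cold arrays, 2639 among bright features, and 1681 to 11551 without 1 array (1681 without either 60 min array, 11551 without either 30 min array, with the other cold arrays in the fit; the time left with 1 array then gives no variety difference, so these pairs are equal by construction). Features chosen in Shin-Hong were also lower by the margin in Man-Su in 11.0% with quantile normalization, 17.1% at a margin of 0.5 and 4.10% at a margin of 1, against 2.79%, 6.53% and 0.812% of all features. Those chosen in Man-Su were also lower in Shin-Hong in 47.7% with quantile normalization, 63.3% at 0.5 and 35.6% at 1, against 7.31%, 15.2% and 4.05%. The causes were not tested. The 60 and 30 min arrays were compared within variety, by the variety term.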

Other observations

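Man-Su cold 30 min was low in features chosen for a late fall in Shin-Hong, of which 336 of 975 were at least 0.7 log2 units below the Man-Su 15 min array at 30 min, 20 at 60 min and 77 at 120 min. Of the same features 674 were lower in Man-Su at 120 than at 15 min by any margin, or 69.1% against 52.0% of all features. Among the 180 features chosen in Man-Su, 156 were lower in Shin-Hong at 120 than at 15 min, or 86.7% against 50.5% of all features. Shin-Hong cold 120 min is an array that stood apart, and its part in this share was not tested.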
